A study of Mus musculus with 8 samples.

Results

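The interferon-stimulated genes described here were chosen by name, with earlier results of these data known. They are a set of 37 mouse genes that cells switch on when an interferon receptor is engaged. Of these, 34 were measured by an array probe set with exactly 1 gene symbol, out of 19937 genes measured in that way, and the probe set with the highest mean was used for each gene. Isg15 and Gbp2 were each present only on a probe set that carries several symbols, and Ifi44 on no named probe set, so these 3 members have no value here. The measurements are whole-transcript microarray signals from 8 samples of B-lymphoid cells labelled with the strain SW129/C57BL/6J, namely 4 with a c-jun knock out and 4 wild type. The study's title concerns c-JUN and the methylation of Cdk6 in lymphoid leukemia induced by BCR-ABL, but the sample labels do not say whether these cells carry BCR-ABL, how the deletion was made, or the animals' age. All 8 samples share the cell type and strain label, and no treatment is given for any of them. The titles follow 2 naming schemes, each holding 2 samples of either genotype: RO for replicates 1 and 2 and D/F for replicates 3 and 4. Replicate numbers only name the samples. No label says that they came from separate cultures or animals, so the p-values reflect only how far these 8 samples differ, some of which may be technical.

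Type I interferons bind the receptor chains Ifnar1 and Ifnar2, whose kinases phosphorylate STAT proteins, Stat2 among them. With Irf9 as its DNA-binding subunit the factor ISGF3 then forms, which binds the interferon-stimulated response element (ISRE) in the promoters of its target genes. The targets include sensors of foreign nucleic acid, proteins that block viral translation or replication, and feedback inhibitors, while interferon gamma acts through the GAS element and also raises Irf1 and the immunoproteasome. In lymphoid cells a low tonic activity of the pathway is known to keep some of these genes on without infection. c-JUN, the product of the gene Jun, is a subunit of the transcription factor AP-1.

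The promoters of the members were searched for the response element. RefSeq promoter windows on GRCm38.p6, which run from upstream of a gene's start to a short way past it, were given for 24 of the 34 measured members. The ISRE core was searched as GAAANNGAA on both strands, counting overlapping matches, and it stood in a window of 12 of the 24 members (50%) against 2638 of 27025 genes with a window (9.76%). With 1 further A required next to the core the counts were 10 members (41.7%) and 3.99% of genes. The GAS core, TTCNNNGAA on both strands, stood in 6 members (25%) and 9.55% of genes. The first 4 sequences below are upstream parts of member promoters of 250 bases that hold the core, printed 5′ to 3′ on the gene's strand up to the base before its start. They show how often and how densely the element can occur in this set. Capitals mark every base of an ISRE core match on either strand, which reads TTCNNTTTC where the match lies on the opposite strand.
Ifit1: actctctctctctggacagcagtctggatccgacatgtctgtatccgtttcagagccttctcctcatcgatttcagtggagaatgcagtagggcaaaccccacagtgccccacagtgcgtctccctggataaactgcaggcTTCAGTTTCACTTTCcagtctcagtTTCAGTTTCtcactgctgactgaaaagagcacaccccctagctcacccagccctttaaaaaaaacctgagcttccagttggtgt
Ifit3: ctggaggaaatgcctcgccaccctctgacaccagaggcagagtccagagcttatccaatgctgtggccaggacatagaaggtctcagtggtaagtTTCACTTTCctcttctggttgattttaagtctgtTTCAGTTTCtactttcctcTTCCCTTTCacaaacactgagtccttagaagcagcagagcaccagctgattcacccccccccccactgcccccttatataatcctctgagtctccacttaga
Oas3: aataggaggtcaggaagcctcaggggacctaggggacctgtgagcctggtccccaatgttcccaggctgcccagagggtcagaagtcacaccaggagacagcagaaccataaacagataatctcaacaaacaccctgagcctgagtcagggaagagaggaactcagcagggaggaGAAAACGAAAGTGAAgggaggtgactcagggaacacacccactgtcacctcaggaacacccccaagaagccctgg
Cxcl10: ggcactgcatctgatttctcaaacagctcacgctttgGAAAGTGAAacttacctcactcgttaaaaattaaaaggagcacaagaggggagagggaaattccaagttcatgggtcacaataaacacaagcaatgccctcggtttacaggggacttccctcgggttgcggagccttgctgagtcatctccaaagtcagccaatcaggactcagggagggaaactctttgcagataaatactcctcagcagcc
Psmb9-Tap1: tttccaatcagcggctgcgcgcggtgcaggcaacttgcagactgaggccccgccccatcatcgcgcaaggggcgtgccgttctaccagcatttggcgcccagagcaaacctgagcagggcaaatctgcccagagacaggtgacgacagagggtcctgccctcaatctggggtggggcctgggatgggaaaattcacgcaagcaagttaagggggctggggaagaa

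These stretches lie at chr19:34640639-34640888 (Ifit1, plus strand, 3 matches), chr19:34583279-34583528 (Ifit3, plus strand, 3 matches), chr5:120777660-120777909 (Oas3, minus strand, 2 overlapping matches) and chr5:92348890-92349139 (Cxcl10, minus strand, 1 match). The last sequence, of 225 bases, is the whole interval between the starts of Psmb9 and Tap1, 2 members transcribed away from each other, at chr17:34187331-34187555 and printed on the plus strand, the strand of Tap1. It is shown because Psmb9 gave the smallest p among the members below, and it holds no match to the core as searched. A match is a description of letters and is not shown to be a bound site, and the absence of one says only that these letters are not in this window.

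Before the results, a few facts on the samples bear on every value. The authors deposited log2 signals whose trimmed linear mean is the same on every array, but the array medians still ranged from 6.93 to 7.42, with wild-type replicates 1 and 3 the highest, so each result is given against the same measure over all genes and again after quantile normalization, which gives every array 1 common distribution. The median log2 difference of all 19937 genes, knockout minus wild type, was -0.11 as deposited, -0.024 after quantile normalization and 0.040 when arrays were centred on their medians. Jun itself read 6.99, 6.46, 7.02 and 6.97 in the knockout samples and 8.82, 8.84, 10.55 and 8.77 in the wild-type samples, a difference of -2.38 (SE 0.32, limma adjusted p = 0.106), so the groups did not overlap and every sample matched its label. The B-lineage genes Cd79a, Cd79b, Pax5, Ebf1 and Igll1 were high in all 8 samples, as were Vpreb1, Blnk, Cd24a and Ptprc. The other measured genes listed for that lineage, Rag1, Rag2, Dntt, Il7r and Cd22, varied widely between samples. Rag2 ranged from 5.69 in wild-type replicate 4 to 9.49 in knockout replicate 2. Since the RNA is from bulk samples, fewer expressing cells and less RNA per cell cannot be told apart for any gene below.

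The first comparison asks how the interferon-stimulated genes differed between c-jun knockout and wild-type cells. No member passed the test: of 34 members 0 had a limma adjusted p under 0.05 (Benjamini-Hochberg over all genes), where 1 gene of 19937 did (0.00502%), and all adjusted p of members were between 0.878 and 0.993. The knockout mean was below the wild-type mean for 30 of 34 members (72% of all genes), with a median log2 difference of -0.25 over the members and -0.11 over all genes. At an unadjusted limma p under 0.05, 2 members were lower, Psmb9 and Xaf1 (1.72% of all genes), and 1 was higher, Samd9l (0.537%), or 3 in either direction (2.25%). That count of 3 was 0 with knockout replicate 2 left out, 1 with wild-type replicate 3 left out and 10 with wild-type replicate 4 left out, where 24.4% of all genes passed. The share of all genes thus moved with the sample left out, and the change in the count is not read as a result about the members. Psmb9 was also the 1 member whose groups did not overlap with the knockout lower (1.03% of all genes), and 0 members had a non-overlapping higher knockout group (0.266%). After quantile normalization again 0 members passed the adjusted threshold (0.00502%), 3 were lower at the unadjusted one (Cxcl10, Psmb9 and Xaf1; 2.21% of all genes), 1 was higher (Samd9l; 1.18%), and 27 of 34 were below 0 (56.5%) with a median of -0.14. Cxcl10 then joined Psmb9 as members with non-overlapping groups, 2 in all (1.55% of all genes). With arrays centred on their medians, 23 of 34 were below 0 (39.7% of all genes).

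**Figure D1:**
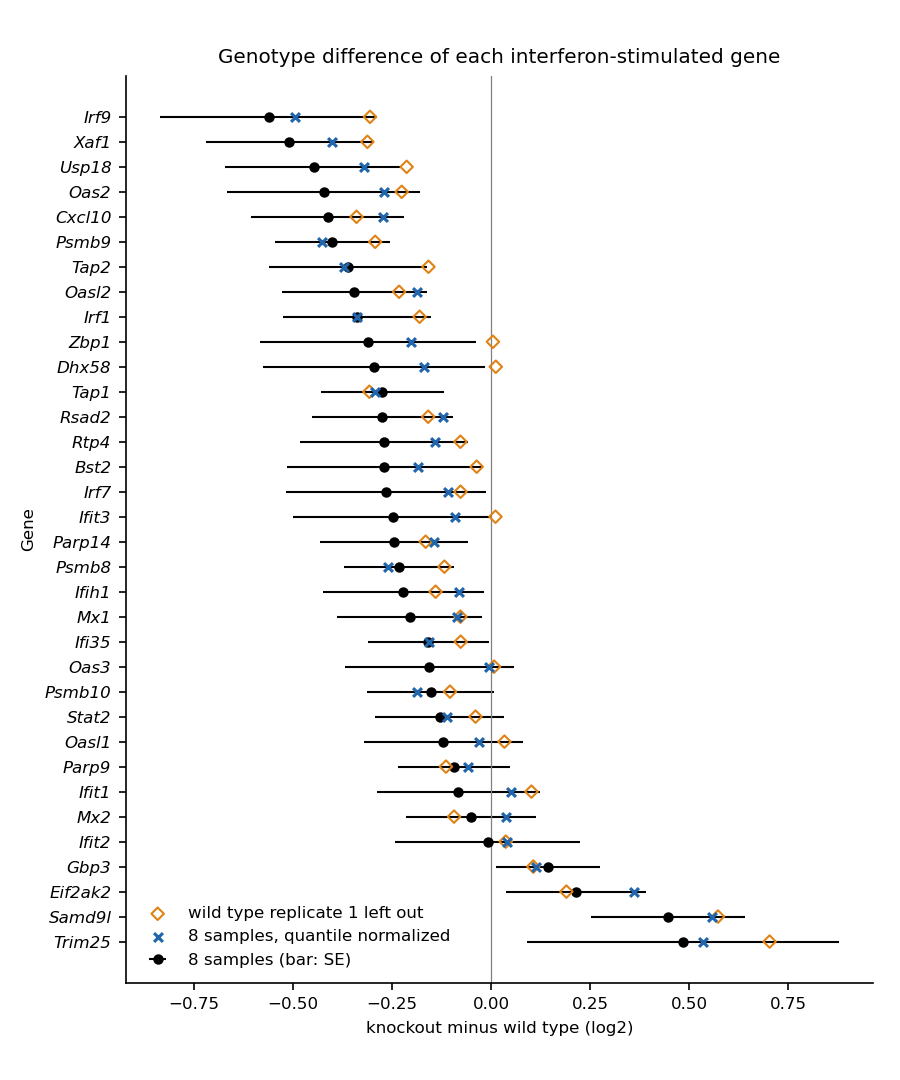
Log2 difference, knockout minus wild type, of each of the 34 members (x axis) ordered by size (y axis, gene symbols). Black points are the 8 samples as deposited with the limma SE as bars, blue crosses the same after quantile normalization and open diamonds the fit with wild-type replicate 1 left out; most black points lie left of 0, from Irf9 at -0.56 to Trim25 at 0.48, and most diamonds lie closer to 0.

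The transcription factors of the response were each lower on average in the knockout, with log2 differences from -0.56 to -0.13 and a median of -0.30, and none passed the test. Irf9 read 8.19, 7.35, 8.18 and 8.65 in the knockout and 9.20, 8.37, 8.67 and 8.36 in the wild type, each in replicate order, which is kept for every gene below. Its difference of -0.56 (SE 0.27) is the most negative among the members, yet the groups overlapped, since knockout replicate 4 was above 2 of the wild-type samples. Knockout replicate 2, at 7.35, was the lowest of the 8 samples, and with it left out the difference was -0.30. Stat2, another subunit of ISGF3, read 8.72, 8.91, 8.62 and 8.86 against 9.15, 8.65, 8.92 and 8.90 (difference -0.13, SE 0.16). Irf7, which amplifies interferon production, read 6.50, 6.41, 6.77 and 6.95 against 7.38, 6.83, 7.21 and 6.26 (-0.26, SE 0.25), with both the highest and the lowest value in the wild type. Irf1, a factor raised mainly by interferon gamma, read 8.92, 9.12, 9.15 and 8.76 against 9.78, 9.05, 9.31 and 9.15 (-0.34, SE 0.19). A second Irf1 probe set gave a difference of -0.055. In all 4 factors the highest of the 8 samples was wild-type replicate 1.

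The feedback gene Usp18, whose product removes ISG15 from proteins and blocks the receptor, read 6.94, 7.10, 7.39 and 7.22 in the knockout and 8.23, 7.41, 7.47 and 7.32 in the wild type (-0.45, SE 0.22). Wild-type replicate 1 stood alone at the top, and the other wild-type samples lay close to the upper knockout values. Trim25, the ubiquitin ligase that activates RIG-I, ran the other way, at 9.65, 9.53, 10.09 and 9.97 against 9.99, 9.57, 7.83 and 9.91 (0.48, SE 0.39). That difference rests on wild-type replicate 3, without which it was -0.065. Isg15, the modifier itself, is the member of this class without a value.

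Among the sensors, Ifih1 (MDA5, a receptor for long double-stranded RNA) read 6.37, 6.10, 6.34 and 6.56 against 6.78, 6.61, 6.76 and 6.11 (-0.22, SE 0.20). Dhx58 (LGP2, its regulator) read 6.82, 6.86, 7.41 and 7.23 against 8.24, 7.36, 6.999 and 6.91 (-0.30, SE 0.28). Zbp1, a sensor of Z-form nucleic acid, read 7.29, 7.23, 7.38 and 7.21 against 8.45, 7.06, 7.67 and 7.16 (-0.31, SE 0.27). In both Dhx58 and Zbp1 a single sample set the difference: without wild-type replicate 1 it was 0.012 and 0.0047. Eif2ak2 (PKR, which halts translation on sensing double-stranded RNA) read 7.70, 8.03, 8.38 and 8.01 against 7.65, 7.89, 7.72 and 8.00 (0.21, SE 0.18), and here wild-type replicate 1 was the lowest of the 8 samples.

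The IFIT genes, whose products bind foreign RNA and stop its translation, showed small differences in overlapping groups. Ifit1 read 5.98, 6.15, 6.16 and 6.34 against 6.74, 6.07, 6.23 and 5.92 (-0.083, SE 0.21). Ifit2 read 8.65, 7.95, 7.99 and 8.00 against 8.38, 8.05, 8.58 and 7.63 (-0.0082, SE 0.23), with knockout replicate 1 the highest sample. Ifit3 read 6.46, 6.43, 6.46 and 6.28 against 7.39, 6.17, 6.78 and 6.28 (-0.25, SE 0.25). The promoters of Ifit1 and Ifit3 printed above hold 3 ISRE core matches each, and without wild-type replicate 1 their differences were 0.10 and 0.011.

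The oligoadenylate synthetase family is known for making the second messenger that activates RNase L. Oas2 read 6.32, 6.27, 6.99 and 6.91 against 7.45, 6.94, 7.23 and 6.56 (-0.42, SE 0.24). Oas3 read 6.67, 6.70, 6.82 and 6.96 against 7.42, 6.96, 6.95 and 6.44 (-0.16, SE 0.21). Oasl1, which restrains Irf7 translation, read 7.76, 7.64, 7.97 and 8.03 against 8.32, 7.76, 8.20 and 7.61 (-0.12, SE 0.20), and Oasl2 read 6.72, 6.68, 7.23 and 6.94 against 7.43, 7.07, 7.36 and 7.09 (-0.35, SE 0.18). All 4 were highest in wild-type replicate 1, and in all 4 the groups overlapped.

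The large GTPases differed among themselves. Mx1 read 5.74, 5.83, 5.79 and 5.83 against 6.33, 5.72, 6.14 and 5.81 (-0.21, SE 0.18). The mean signals of Mx1 and Mx2 were above those of only 10.1% and 5.14% of all genes. Mx2 read 5.55, 5.56, 5.45 and 5.48 against 5.46, 5.59, 5.80 and 5.40 (-0.051, SE 0.16), with no sample of either group standing apart. Gbp3, a guanylate-binding protein of the cell-autonomous defence, read 11.35, 11.32, 10.57 and 10.84 against 11.05, 11.15, 10.74 and 10.56 (0.14, SE 0.13). Its values followed the naming scheme rather than the genotype: all 4 RO samples were above all 4 D/F samples, by 0.54 on average (limma adjusted p = 0.493).

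Of the other effectors, Xaf1, a pro-apoptotic partner of XIAP, read 7.28, 7.23, 7.24 and 7.04 against 8.41, 7.70, 7.52 and 7.21 (-0.51, SE 0.21, limma adjusted p = 0.878). Its knockout samples were tightly grouped, with a SD of 0.11, and 3 of the 4 wild-type samples lay above them all. Samd9l, a restriction factor and growth suppressor, was the one higher member at the unadjusted threshold, at 7.74, 8.39, 8.50 and 8.58 against 8.03, 7.57, 7.94 and 7.90 (0.45, SE 0.19, limma adjusted p = 0.878). In this gene 3 of 4 knockout samples were above every wild-type sample and knockout replicate 1 was among the low ones, and the difference was 0.56 after quantile normalization and 0.57 when wild-type replicate 1 was left out. Rsad2 (viperin, which makes a chain-terminating nucleotide) read 6.47, 6.48, 6.72 and 6.64 against 7.11, 6.69, 6.96 and 6.65 (-0.27, SE 0.18), and Rtp4 read 5.76, 6.06, 6.10 and 6.12 against 6.81, 6.13, 6.23 and 5.95 (-0.27, SE 0.21). The remaining effectors were Bst2 (tetherin, which holds budding virus at the cell surface) at -0.27 and Ifi35 at -0.16, both highest in wild-type replicate 1.

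The ADP-ribosyltransferases Parp9 and Parp14 showed differences of -0.092 (SE 0.14) and -0.25 (SE 0.19). Parp9 read 8.81, 8.78, 8.81 and 8.86 against 8.86, 9.02, 8.83 and 8.90, the narrowest range of the members. Parp14 read 7.91, 8.23, 8.16 and 7.86 against 8.59, 8.36, 7.83 and 8.36. Cxcl10, the chemokine that draws Cxcr3-bearing T cells, read 6.22, 6.01, 6.44 and 6.19 against 6.82, 6.70, 6.75 and 6.23 (-0.41, SE 0.19, limma adjusted p = 0.878). The wild-type sample that overlapped the knockout was replicate 4. After quantile normalization the Cxcl10 knockout values were 6.40, 6.22, 6.37 and 6.13, all below the wild-type values of 6.59, 6.68, 6.52 and 6.42, with a difference of -0.27 (SE 0.09). The mean signal of Cxcl10, 6.42 as deposited, was above that of only 21.7% of all genes, and no detection calls were used.

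The immunoproteasome and peptide transport genes, which shape the peptides shown on MHC class I, include the member with the smallest p. Psmb9, a catalytic subunit of the immunoproteasome, read 10.76, 10.79, 10.64 and 10.74 in the knockout (mean 10.73 ± 0.067, SD, n = 4) and 11.56, 11.25, 10.82 and 10.90 in the wild type (mean 11.13 ± 0.34, SD, n = 4). The difference of -0.40 (SE 0.14, limma adjusted p = 0.878) is a 1.32-fold lower knockout mean. The knockout samples spanned a narrow band and the lowest wild-type sample lay just above it, and without wild-type replicate 1 the difference was -0.29. Tap1, which starts from the same interval printed above in the other direction, read 9.996, 9.71, 9.61 and 10.03 against 9.96, 9.97, 10.27 and 10.24 (-0.27, SE 0.15). Its high samples were wild-type replicates 3 and 4, not replicates 1 and 2 as in Psmb9. Tap2, its partner in the peptide transporter, read 9.49, 9.32, 9.09 and 9.52 against 10.38, 9.58, 9.46 and 9.45 (-0.36, SE 0.20), and Psmb8 read 11.76, 11.85, 11.70 and 11.71 against 12.40, 11.99, 11.66 and 11.90 (-0.23, SE 0.14). Psmb10, the other immunoproteasome subunit, had a difference of -0.15.

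**Figure D2:**
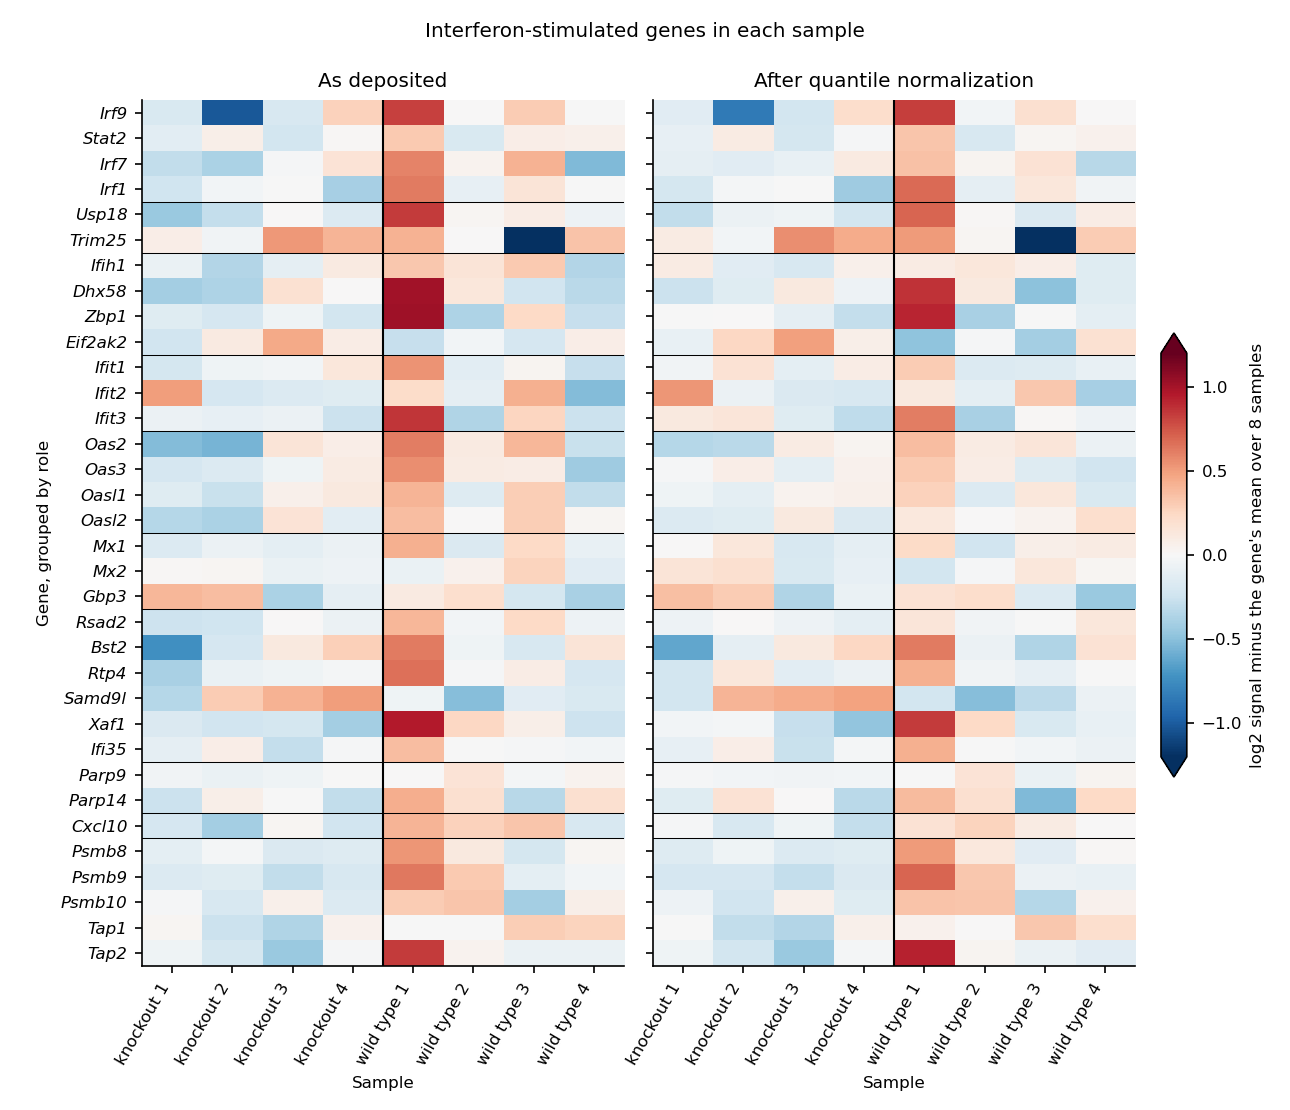
Log2 signal of each member minus its mean over the 8 samples (colour, red above and blue below the mean), with genes grouped by role in rows and samples in columns, as deposited (left) and after quantile normalization (right). The colour scale ends at 1.2 on either side, which Trim25 in wild-type replicate 3 exceeds; the column of wild-type replicate 1 is red for most genes on both sides, with Eif2ak2 blue.

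The samples were then compared to find which of them carried the genotype difference. For most members the highest sample was wild-type replicate 1. It held the highest of the 8 values for 25 of 34 members, where it held the highest value for 33.6% of all genes. After quantile normalization it did so for 23 of 34 members against 24.6% of all genes. The members were chosen with earlier results of these data known, so these counts are not independent of that choice. Among 67 other measured interferon-stimulated genes, wild-type replicate 1 was the highest sample for 18 as deposited (33.6% of all genes). After quantile normalization it was the highest for 10 of them (24.6%). The median deviation of the members from their own means was 0.43 in this sample against 0.21 for all genes as deposited, and 0.34 against 0.050 after quantile normalization. In the other 7 samples the members' medians after quantile normalization lay between -0.11 (knockout replicate 3) and 0.00092 (wild-type replicate 2). Wild-type replicate 3 had an equally high array median but was the highest sample for only 2 members, Mx2 and Tap1, against 27.1% of all genes. By the size of the gap to the nearest sample of the same genotype, 1 of the 4 wild-type samples stood apart for 3 members, Usp18, Ifi35 and Tap2 (4.05% of all genes), each time replicate 1, and 1 of the 4 knockout samples for 2 members, Ifit2 and Rtp4 (4.7%), each time replicate 1.

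**Figure D3:**
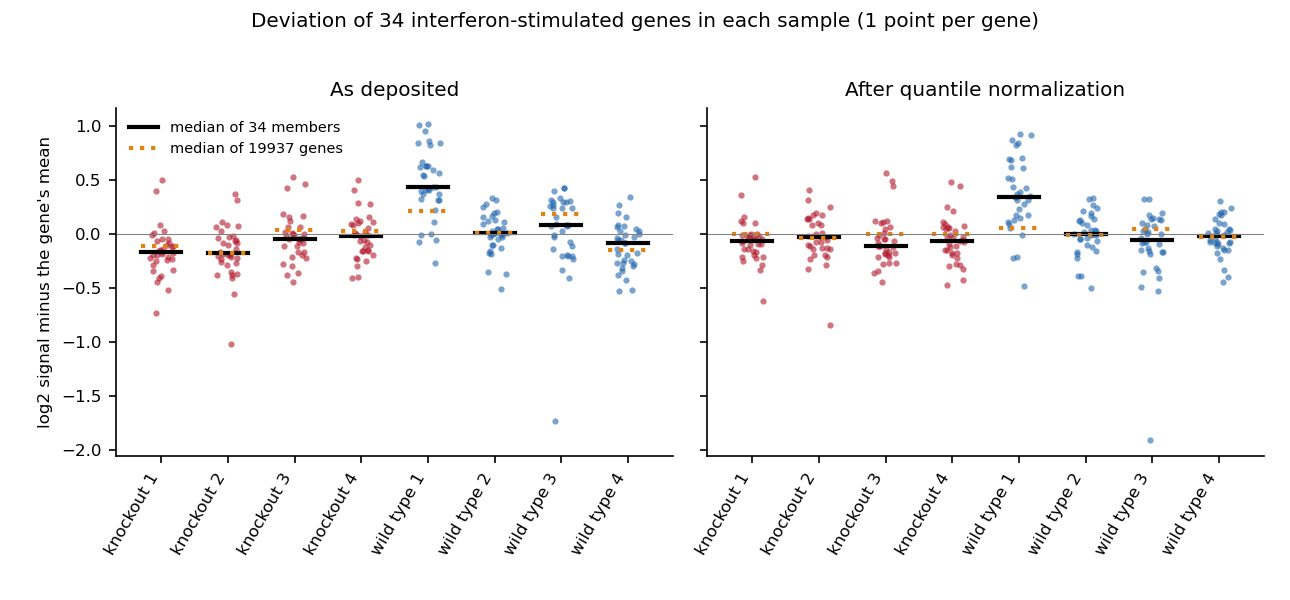
Deviation of each of the 34 members from its mean over the 8 samples (y axis, log2; 1 point per gene) in each sample (x axis), as deposited and after quantile normalization, with a black bar at the members' median and a dotted bar at the median of all 19937 genes. The black bar of wild-type replicate 1 stands at 0.43 on the left and 0.34 on the right, above its dotted bar at 0.21 and 0.050. In knockout replicate 3 and wild-type replicate 3 the black bar lies below the dotted one, at -0.048 against 0.034 and 0.085 against 0.19 on the left.

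By size, the excess of wild-type replicate 1 over the median of the other 7 samples was largest for Dhx58, at 1.24 on the log2 scale or 2.36-fold, followed by Zbp1 (2.33-fold), Xaf1 (2.24-fold) and Ifit3 (1.94-fold). Tap2 (1.89-fold), Usp18 (1.87-fold) and Irf9 (1.78-fold) came next. The sensors had a median excess of 0.81, the transcription factors 0.64 and the immunoproteasome and peptide transport genes 0.64, with the large GTPases at 0.21. Not every member took part: the excess was 0.08 for Samd9l, 0.03 for Parp9, -0.03 for Tap1, -0.09 for Mx2 and -0.35 for Eif2ak2. These numbers describe 1 sample and have no replicate behind them.

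With wild-type replicate 1 left out, 0 members passed the adjusted test (0% of all genes), the median difference of the members moved from -0.25 to -0.085 (all genes -0.047), and 23 of 34 were below 0 (64.1% of all genes). At the unadjusted threshold 1 member was lower, Psmb9 (0.933% of all genes), and 1 was higher, Samd9l (0.527%). On quantile-normalized values without that sample, 0 members passed the adjusted test (0%), the median was -0.057, 22 of 34 were below 0 (53.2%), 3 members were lower at the unadjusted threshold (Cxcl10, Psmb9 and Xaf1; 1.54%) and 1 was higher (Samd9l; 1.15%). The differences without wild-type replicate 1 were -0.31 for Irf9, -0.31 for Xaf1, -0.34 for Cxcl10 and -0.21 for Usp18.

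The naming schemes were compared next, because wild-type replicate 1 belongs to the RO samples. Among these the members' median difference was -0.42, and among the D/F samples it was -0.087, or -0.23 and -0.096 after quantile normalization. As deposited, the median deviation of all genes was -0.11 and -0.18 in the RO knockout samples and 0.21 and 0.0036 in the RO wild-type samples. The median over all genes was thus lower in the RO knockout samples than in the RO wild-type samples. In the D/F samples that deviation was 0.034 and 0.024 in the knockout and 0.19 and -0.15 in the wild type. In the RO samples alone 10 members were lower at an unadjusted limma p under 0.05 (10.6% of all genes) and 0 were higher (1.65%), with 29 of 34 below 0 (73.5%). These were Irf9, Irf7, Usp18, Dhx58, Oas2, Oasl2, Bst2, Xaf1, Cxcl10 and Psmb9. After quantile normalization 6 members were lower there (2.24%). In the D/F samples alone 1 member was lower, Tap1 (2.14% of all genes), and 2 were higher, Trim25 and Samd9l (1.66%), with 20 of 34 below 0 (47.6%). The Tap1 result did not hold after quantile normalization, where 0 members were lower and 1 was higher, counts given without the share of all genes. Within neither scheme did a member pass the adjusted threshold (0.161% of all genes in the RO samples, 0.396% in the D/F samples).

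**Figure D4:**
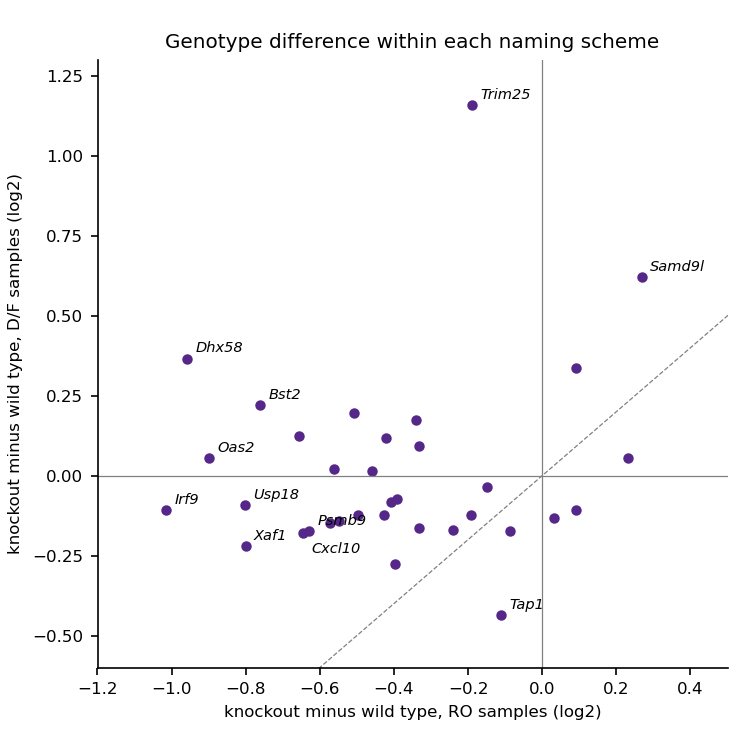
Log2 difference, knockout minus wild type, of each member among the RO samples (x axis) and among the D/F samples (y axis), 2 against 2 samples in each, with the dashed line where both are equal. Most points lie left of 0 on the x axis, down to Irf9 at -1.02, while on the y axis they scatter around 0, with Trim25 at 1.16 and Tap1 at -0.44.

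The difference lay below 0 in both schemes for 18 members and had opposite signs for 13. The interaction of genotype and scheme, which tests whether the 2 differences differ, passed the adjusted threshold for 0 members (0.0301% of all genes). At the unadjusted one, 3 members had a more negative difference in the RO samples (3.42% of all genes): Dhx58 by -1.32 (SE 0.42), Bst2 by -0.98 (SE 0.42) and Oas2 by -0.96 (SE 0.41), each with a limma adjusted p of 0.716. Dhx58 differed by -0.96 in the RO samples and by 0.37 in the D/F samples. Averaged over genotype, 0 members differed between the schemes at the adjusted threshold (0.0201% of all genes) and 2 were higher in the RO samples at the unadjusted one (1.66%), Gbp3 by 0.54 and Psmb9 by 0.32. The labels do not call the schemes batches.

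Whether the members moved together across samples was described by the Pearson correlation over the 8 samples of each of the 561 pairs of members. The points of each correlation are the same 8 arrays, which share their scaling, so no p is given. As deposited the median r was 0.45 and the mean 0.36, where the mean over all pairs of genes was 0.16. After quantile normalization the median was 0.34 and the mean 0.27, against 0.019 for all pairs of genes. Removing the genotype and scheme means left a median of 0.49, or 0.32 after quantile normalization. Leaving out wild-type replicate 1 lowered the median to 0.16 as deposited (mean 0.12, all pairs of genes 0.14) and to 0.013 after quantile normalization (mean 0.012, all pairs 0.015). Leaving out any other single sample kept the quantile-normalized median between 0.35 and 0.40.

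**Figure D5:**
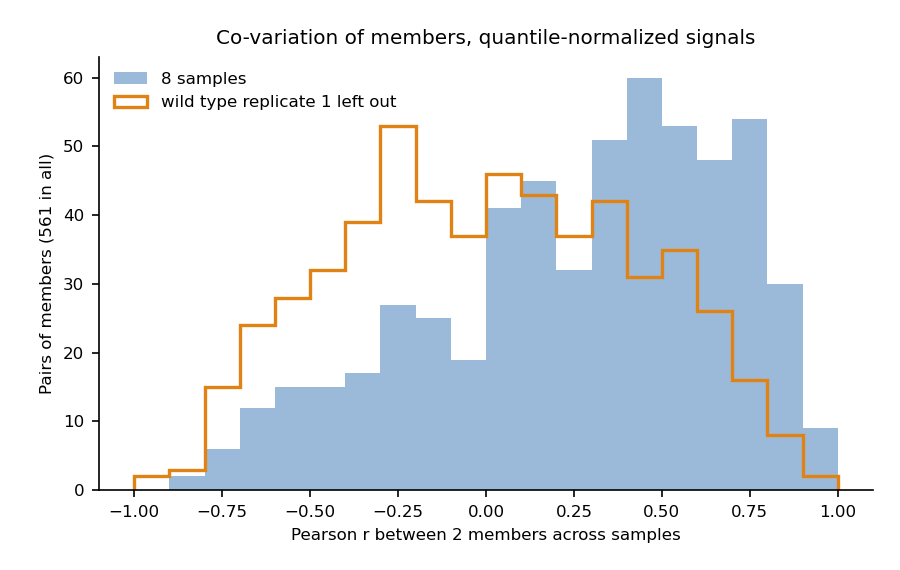
Number of pairs of members (y axis, 561 in all) by their Pearson r across samples (x axis) on quantile-normalized signals. Filled bars are all 8 samples, with a median of 0.34, and the outline is the same after wild-type replicate 1 was left out, with a median of 0.013.

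The members with the highest mean r to the others as deposited were Usp18 (0.59), Rtp4 (0.58) and Xaf1 (0.56), and 23 of 34 had a mean r above 0.4. After quantile normalization the mean r was 0.49 for Usp18, 0.47 for Rtp4 and 0.48 for Xaf1. The mean signal of Rtp4 was above that of only 14.8% of all genes. As deposited, a mean r below 0 was seen in 5 members. These were Eif2ak2 (-0.33), Samd9l (-0.11), Gbp3 (-0.05), Trim25 (-0.05) and Mx2 (-0.02). After quantile normalization without wild-type replicate 1 no member averaged above 0.16, the value of Psmb8, and Oasl1 was lowest at -0.18. Of the genes outside every list used here, the 8 whose log2 values followed the per-sample mean of the standardized members most closely over the 8 samples were Bop1 (r = 0.988), Sorl1 (0.981), Rims2 (0.975), Ctsh (0.975), Rilpl1 (0.975), Gca (0.973), Rassf1 (0.973) and Lrrc47 (0.973). Each of them was highest in wild-type replicate 1, which the way they were picked made all but certain. The mean of the standardized members itself stood at 1.39 in that sample and no higher than 0.21 in any other. Sorl1, for example, read 9.25 in wild-type replicate 1 and between 6.63 and 7.43 in the other 7 samples. After quantile normalization the r of these 8 genes lay between 0.859 (Bop1) and 0.961 (Sorl1).

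The promoter motif was then set against the values. The 12 members with an ISRE core had a median difference of -0.14 and the 12 members without one in their window -0.27, or -0.042 and -0.22 after quantile normalization. Over all measured genes with a window the medians were -0.11 with the core and -0.11 without it. Wild-type replicate 1 was the highest sample for 8 of the 12 members with the core and for 9 of the 12 without it, against 35.6% and 32.9% of all measured genes.

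Because the array medians differed, the members were also split by signal level. The 19 members above the median signal of all genes had a median difference of -0.16, where all such genes had -0.028, and the 15 dimmer members had -0.27 where all such genes had -0.17. Wild-type replicate 1 was the highest sample for 11 of the 19 brighter members (25.3% of such genes) and for 14 of the 15 dimmer ones (41.8%). After quantile normalization these counts were 12 (25.7%) and 11 (23.4%).

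Elsewhere in the pathway no listed gene passed the adjusted test, and counts of lower genes are to be read against 72% of all genes as deposited and 56.5% after quantile normalization. Of 22 interferon genes 15 were measured and 14 were lower on average, with a median of -0.17, but 9 were lower after quantile normalization, with a median of -0.083. Ifna16 read 6.52, 7.06, 6.53 and 6.67 against 8.22, 6.85, 7.79 and 6.72 (-0.70, SE 0.31), while Ifna13 differed by -0.44 and Ifnk by -0.32. Only 2 of the 15 had a mean above that of the median gene. Ifna13 (4.81 to 6.18) and Ifnk (5.40 to 6.30) lay below the array medians in every sample. Ifnb1, the first interferon made on sensing, differed by 0.05 (SE 0.23). Of the receptors and JAK-STAT components 10 of 12 were measured and 5 were lower. The lambda receptor chain Ifnlr1 differed by -0.46 (SE 0.19) and the gamma receptor chain Ifngr1 by 0.49 (SE 0.21), at 10.48, 11.19, 11.62 and 11.62 against 10.83, 10.56, 11.04 and 10.51. Stat3 differed by -0.14 and Ifnar1 by 0.09 (SE 0.15).

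Of 19 genes of upstream sensing 15 were measured and 11 were lower (72% of all genes), 2 of them at an unadjusted limma p under 0.05 (1.72% of all genes). Aim2, a cytosolic DNA sensor of the inflammasome, read 5.86, 5.69, 7.48 and 6.18 against 8.82, 8.13, 8.95 and 6.02 (-1.68, SE 0.59), with wild-type replicate 4 down among the knockout samples. Ticam1, the adaptor TRIF, read 8.15, 8.00, 8.47 and 8.19 against 8.66, 8.59, 8.53 and 8.76 (-0.43, SE 0.16), with no overlap (1.03% of all genes). Tlr9, the endosomal receptor of DNA, differed by -0.53 (SE 0.26). Of 14 negative regulators 9 were lower, with Socs3 at -0.56 (SE 0.25), Adar at -0.26 and Ptpn6 at -0.14, and the list's median was -0.010.

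A wider list of 84 other interferon-stimulated genes was read beside the members. Of 67 measured, 47 were lower (70.1%, where all genes had 72%), with a median of -0.080, or 30 lower (56.5% of all genes) and a median of 0.020 after quantile normalization. Wild-type replicate 1 was the highest sample for 18 of the 67 (33.6% of all genes), and for 10 after quantile normalization (24.6%). At an unadjusted limma p under 0.05, 2 of them were lower (1.72% of all genes), Sp100 (-0.59, SE 0.23) and Ifitm1 (-2.08, SE 0.87), and 0 were higher (0.537%). Ifitm1, a membrane protein that blocks viral entry, read 6.73, 6.71, 9.48 and 9.90 against 11.90, 9.16, 11.93 and 8.14, a range within each genotype that exceeds the difference between them. Lgals3bp differed by -0.49 (SE 0.23).

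The MHC genes outside the set are also induced by interferon, class II through Ciita. The class I list also held genes that make or load its peptides, and 6 of its 10 measured genes were lower in the knockout (72% of all genes). Psme2, an activator of the proteasome, read 11.15, 10.22, 11.01 and 10.75 against 12.23, 11.28, 10.93 and 10.93 (-0.56, SE 0.28). Tapbp and H2-Q4 each differed by -0.31. Of 8 measured MHC class II genes 7 were highest in wild-type replicate 1, as deposited (33.6% of all genes) and after quantile normalization (24.6%), with a median deviation there of 0.92 and 0.80. Cd74, the invariant chain, read 7.67, 7.90, 8.04 and 8.88 in the knockout and 9.97, 7.33, 9.93 and 8.86 in the wild type (-0.90, SE 0.46), with wild-type replicate 2 below every knockout sample. H2-DMa, which loads class II peptides, read 9.94 there and 6.76, 7.17 and 8.06 in the other wild-type samples (-0.86, SE 0.56), and H2-Aa differed by -0.63 (SE 0.36).

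Markers of cell types were read beside these results, as mean log2 level over the array median. The 14 measured B-lineage markers averaged 3.41 to 4.19 in the knockout samples and 2.89 to 3.89 in the wild type, and the low end, 2.89, was wild-type replicate 1. The early-stage genes varied within both genotypes: Rag1 read 9.88, 10.43, 8.06 and 8.003 in the knockout and 7.22, 9.80, 9.72 and 6.17 in the wild type. Il7r read 12.40, 12.44, 9.75 and 8.96 against 8.92, 11.64, 11.39 and 10.13. The 8 measured mature B and plasma cell markers averaged 0.14 to 0.33 and 0.12 to 0.57, with the high end in wild-type replicate 1. Of these markers 3 were highest in that sample, as deposited (33.6% of all genes) and after quantile normalization (24.6%). Xbp1 read 12.59 there, 10.15 to 10.97 in the other wild-type samples and 10.52 to 11.66 in the knockout. Jchain was highest in wild-type replicate 3 (7.95), Prdm1 in wild-type replicate 2 (6.94) and Irf4 in knockout replicate 2 (10.82). The 19 myeloid markers averaged -0.53 to -0.32 in the knockout and -0.62 to -0.30 in the wild type, with wild-type replicate 1 at the low end. In that sample 9 of them were highest before quantile normalization (33.6% of all genes) and 6 after it (24.6%). Some genes of this list stood far above its average and varied widely. Lyz2 read 10.63, 10.64, 9.24 and 7.44 against 8.33, 8.66, 9.93 and 8.35. Fcgr3 read 9.39 and 10.09 in wild-type replicates 2 and 3, and Mrc1 ranged from 7.38 to 9.15. The 10 dendritic and plasmacytoid markers averaged -0.84 to -0.68 and -0.87 to -0.82, with Siglech between 6.27 and 6.93, below the array medians. The 14 T and NK markers averaged -0.54 to -0.29 and -0.55 to -0.16, and Klrb1c, at 10.54 in wild-type replicate 3 and 8.93 in knockout replicate 4, read 6.08 in wild-type replicate 1. The 9 erythroid and megakaryocyte markers averaged -0.13 to -0.084 and -0.32 to -0.017, and the 12 stromal and endothelial ones -0.12 to 0.097 and -0.22 to 0.040. Of the latter, Fn1 read 7.25, 10.22, 10.06 and 7.03 against 7.16, 9.34, 7.27 and 6.85. The part that cell composition or differentiation stage has in the members' values was not tested.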

How the data were processed

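RNA from 8 samples of B-lymphoid cells was hybridised to Affymetrix MoGene 1.0 ST arrays; per the labels' protocols it was extracted with Trizol, cleaned on a Qiagen column, and 200 ng was primed with random hexamers and labelled with biotin. The authors deposited log2 signals for 34760 probe sets, made with MAS5 per the submitters' processing notes; no source used here gives the version, probe summarization or genome build, and MAS5 relies on mismatch probes that this array type lacks. From the values, the linear mean with 2% trimmed is 500 on every array. No detection calls were used, so differences near the bottom of the scale are uncertain, and 8 arrays limit the precision.

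The platform annotation gave 1 symbol to 21640 probe sets, several to 1321 and none to 11799. The genotype label set the groups. The log2 values were fitted over all genes with limma 3.58.1 in R 4.3.3 (trend, genotype and naming scheme as terms, 5 residual degrees of freedom), called at a Benjamini-Hochberg adjusted p under 0.05, and each SE is moderated. The same fit was run after quantile normalization, within schemes, with an interaction term, without single samples, and under the other settings of the closing section. The fitting script was tested on simulated data. The members, their roles and the other gene lists were chosen with earlier results of these data known. Every member is accounted for; values per sample are given in classes of up to 4 measured or listed members and for the 4 of smallest p in larger ones, and up to 3 genes of smallest p are named from each pathway list, with Ifnar1 and Ifnb1; 1 further gene of that rule is not reported here. RefSeq supplied the promoter sequences.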

Additional observations from a re-analysis of the deposited data

Results flagged for a closer look

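In 5 cases 1 sample stood apart from the other 3 of its genotype, with a gap to the nearest sample that took up most of the group's range. Among the knockout samples these were Ifit2, at 8.65 in replicate 1 where the next value was 8.00, and Rtp4, at 5.76 in replicate 1 where the next was 6.06. Among the wild-type samples they were Usp18, at 8.23 in replicate 1 with the next at 7.47, Ifi35, at 9.62 in replicate 1 with the next at 9.24, and Tap2, at 10.38 in replicate 1 with the next at 9.58. Chance flags about 1 in 20 groups, and over all genes the share was 4.7% for the knockout and 4.05% for the wild-type samples, against 2 and 3 of 34 members. After quantile normalization the gap was no longer past the criterion for Rtp4 and Usp18.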

How the results depend on the processing

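Under all 22 alternative settings 0 members passed the adjusted threshold, in the genotype comparison and in the interaction and scheme comparisons under those settings that were run there, and the members' median difference stayed below 0. That median was -0.057 on quantile-normalized values with wild-type replicate 1 left out and -0.057 with wild-type replicates 1 and 3 left out, both settings chosen after seeing the data. The count of members at the unadjusted threshold was 1 with the scheme as a random block and 10 with array weights (16.1% of all genes). In the RO samples alone it was 10, all of them lower (10.6% of all genes). The share of all genes moved with the setting, so these counts are not read as a result about the members. Leaving out 1 sample moved the count between 0 (knockout replicate 2) and 10 (wild-type replicate 4, where 24.4% of all genes passed). Restricting the test to genes above the median signal left 19 members, of which 15 were lower, 11 were highest in wild-type replicate 1 and the median r was 0.27. The median r was 0.22 with arrays centred on their medians, and from 0.16 to 0.55 with 1 sample left out. Members with non-overlapping groups, in either direction, numbered 2 after quantile normalization (2.22% of all genes). With 1 sample left out they numbered from 1 to 6, the latter without wild-type replicate 4 (11.1% of all genes), and 5 without knockout replicate 3 (3.13%) or wild-type replicate 3 (2.21%).

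The sign of the difference held under every setting run for 16 members and turned under at least 1 for 18. After quantile normalization it turned for Ifit1 (0.050), Ifit2 (0.041) and Mx2 (0.037). With arrays centred on their medians it turned for Stat2 (0.023), Ifit1 (0.070), Ifit2 (0.14), Oasl1 (0.032), Mx2 (0.10), Parp9 (0.061) and Psmb10 (0.00070). In the RO samples alone Trim25 was at -0.19, Ifit2 at 0.091 and Mx2 at 0.031. In the D/F samples alone Irf7 was at 0.13, Ifih1 at 0.015, Dhx58 at 0.37, Ifit1 at 0.17, Oas2 at 0.056, Oas3 at 0.20, Oasl1 at 0.092, Bst2 at 0.22, Rtp4 at 0.021 and Psmb10 at 0.12. Quantile-normalized without wild-type replicate 1, Dhx58 was at 0.083, Zbp1 at 0.071, Ifit1 at 0.16, Ifit2 at 0.050, Ifit3 at 0.087, Oas3 at 0.075, Oasl1 at 0.078 and Bst2 at 0.046. Without wild-type replicates 1 and 3, Irf7 was at 0.11, Zbp1 at 0.17, Ifit1 at 0.16, Ifit2 at 0.31, Ifit3 at 0.18, Oas3 at 0.089, Oasl1 at 0.17, Mx1 at 0.027 and Mx2 at 0.018. With 1 sample left out the range was -0.20 to 0.10 for Ifit1, -0.18 to 0.20 for Ifit2, -0.46 to 0.012 for Dhx58, -0.55 to 0.0047 for Zbp1, -0.47 to 0.011 for Ifit3, -0.33 to 0.0076 for Oas3, -0.28 to 0.034 for Oasl1, -0.065 to 0.76 for Trim25 and -0.12 to 0.046 for Mx2. Beyond what a setting's construction shows, the cause was not tested. No paired analysis was possible because the labels give no replicate numbers. A pseudocount was not tried, since the values were deposited as log2.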
